A study of Mus musculus with 4 samples.

Results

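The genes described here are grouped under NFAT and store-operated calcium signalling, by which the calcium signal of the T-cell receptor reaches the nucleus. They include 4 transcription factor genes (Nfatc1, Nfatc2, Nfatc3, Nfat5), the plasma membrane calcium channel gene Orai1 and the calcium sensor genes Stim1 and Stim2. The others are the calcineurin catalytic genes Ppp3ca and Ppp3cb and the calcineurin regulator gene Rcan1. These 10 genes were chosen by name, with earlier results of these data known. All 10 were matched by symbol among the 50600 genes of the deposited tables. RNA was sequenced in bulk from primary T cells of the mouse strain C57BL/6NJ, in 4 libraries numbered as biological replicates 1 to 4 of 1 cell type. The file headers named every library as activated bulk cells at 72 h, with a sample name that begins mmTh0, and the linked differentiation protocol is named for CD4+ T cells. No unstimulated or otherwise treated group was given, age and sex were not recorded, and the sources used here do not name the agent used for activation. The labels give the molecule as total RNA, while the linked library protocol is named for polyA RNA, and which was sequenced was not settled. With 1 group, the values below are levels and their spread in activated cells, and they do not show what activation changed.

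When the T-cell receptor is engaged, phospholipase C gamma makes inositol trisphosphate, which opens receptors in the endoplasmic reticulum (ER) and empties its calcium store. The STIM proteins sense the fall of ER calcium and open ORAI channels, the current known as store-operated calcium entry. Calcium-bound calmodulin then activates the phosphatase calcineurin, which strips phosphates from NFATc1 to NFATc4 and lets them enter the nucleus, where they act with partner factors on cytokine genes. NFAT5 shares the DNA-binding domain but is known for its response to osmotic stress and is not a substrate of calcineurin. RCAN1 binds calcineurin and can inhibit it, and 1 of its promoters is a textbook target of NFAT.

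The docking motif for calcineurin, known as PxIxIT, was looked for in the NFAT genes in this exact form. Sites that depart from that form would be missed, so a lack of matches does not show that docking is absent. A search of translated GENCODE M21 transcripts that start with a start codon found it in 6 of 6 coding transcripts of Nfatc1, 4 of 5 of Nfatc2, 3 of 3 of Nfatc3 and 3 of 4 of Nfatc4, and in 0 of 5 of Nfat5. The coding bases of the site are shown for 3 of these genes, with its 18 bases in capitals, 5′ to 3′ on the coding strand (GRCm38).
Nfatc2, exon 2, chr2:168571416-168571433, minus strand: ccgagcCCTCGGATCGAGATCACTccatcc
Nfatc3, exon 2, chr8:106078828-106078845, plus strand: gagtgcCCAAGTATTCAAATCACAtccatt
Nfatc4, exon 2, chr14:55826397-55826414, plus strand: gagtgtCCCAGCATCCGGATTACCtccatc
The site lies within exon 2 in all 3 of these genes, and Nfatc4 is shown beside the members because its RNA was nearly absent here.

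Rcan1 has 2 annotated RefSeq starts that lie 66091 bases apart, and the 250 bases before each differ in the core motif bound by NFAT. The windows are shown because the gene-level counts cannot separate transcripts from the 2 starts. Capitals mark each match to GGAAA or, on the other strand, TTTCC (RefSeq, GRCm38.p6, minus strand, 5′ to 3′).
Rcan1 distal start, chr16:92466170-92466419: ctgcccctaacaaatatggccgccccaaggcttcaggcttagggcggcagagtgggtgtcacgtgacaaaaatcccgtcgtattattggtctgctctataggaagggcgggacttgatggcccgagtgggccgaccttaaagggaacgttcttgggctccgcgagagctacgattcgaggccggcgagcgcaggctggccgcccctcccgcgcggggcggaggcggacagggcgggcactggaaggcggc
Rcan1 internal start, chr16:92400079-92400328: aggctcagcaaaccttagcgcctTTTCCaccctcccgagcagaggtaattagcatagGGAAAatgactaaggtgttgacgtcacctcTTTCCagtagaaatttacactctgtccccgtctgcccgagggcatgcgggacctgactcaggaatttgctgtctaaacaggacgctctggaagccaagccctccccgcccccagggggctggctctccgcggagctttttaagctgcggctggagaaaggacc
The internal window held 3 matches, whose first bases lie 227, 193 and 163 bases before the start, and the distal window held 0. Of 32817 windows of this length in the RefSeq promoter table, 55.6% held at least 1 match and 6.4% held at least 3. Matches of so short a motif are a description of the letters and not evidence of binding. Among the other members in the table, windows of Nfatc2 (3 and 1 matches at 2 starts), Ppp3cb (3), Nfat5 (2) and Nfatc3 (1 and 0) held the motif, and those of Orai1, Stim1 and Stim2 did not.

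The libraries held 49613182 to 94222415 counts, a ratio of 1.9. Levels are given as TPM (the count divided by the gene's exon length and scaled to the same sum in every library), and a gene was called detected when it reached 1 TPM in every library. All 8 T-cell markers were detected, with Cd4 at 1056 ± 62.8 TPM (SD, n = 4). Of 34 markers of CD8 T cells, B cells, macrophages, dendritic cells, neutrophils, natural killer cells, erythroid cells, platelets and stroma, 5 were detected (Cd8b1, Cd79b, Adgre1, Zbtb46 and Eomes) and 7 had 0 counts in all libraries. The B-cell list summed to 3.30 to 5.09 TPM per library, the macrophage list to 3.54 to 4.39 TPM and the CD8 list to 12.9 to 18.2 TPM. Most of the CD8 sum was Cd8b1 (mean 15.8 TPM), while Cd8a stood at 0.190 TPM. Most of the macrophage sum was Adgre1 (mean 3.21 TPM). The libraries carry 1 donor identifier in the labels, yet Xist stood at 150.1 TPM or more in replicates 1 and 2 and at most 0.877 TPM in replicates 3 and 4. The Y-linked gene Ddx3y went the other way, at 0.0344 and 0.0834 TPM in replicates 1 and 2 and 49.0 and 45.8 TPM in replicates 3 and 4. Replicates 1 and 2 thus differed from replicates 3 and 4 in sex-linked RNA, despite the shared donor identifier. No member lies on a sex chromosome. P-values between libraries therefore measure only the spread among these samples, whose source the labels do not settle, and in bulk RNA fewer expressing cells and less RNA per cell cannot be told apart.

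All 10 members were detected, against 49.4% of 21764 protein-coding genes. Because the members were chosen with earlier results of these data known, this count is a description only. Their mean levels ran from 8.70 TPM for Ppp3ca to 187 TPM for Nfatc1, with a median of 47.0 TPM, beside a median of 34.8 TPM over the 10754 detected protein-coding genes. The counts behind a level were never low: the smallest was 1213, for Ppp3ca in replicate 2. No member shared exon bases with another gene on its own strand. Exon bases on the opposite strand were shared by Nfatc3 (1.87%, with Esrp2) and Orai1 (0.31%), and the counting used strand.

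**Figure D1:**
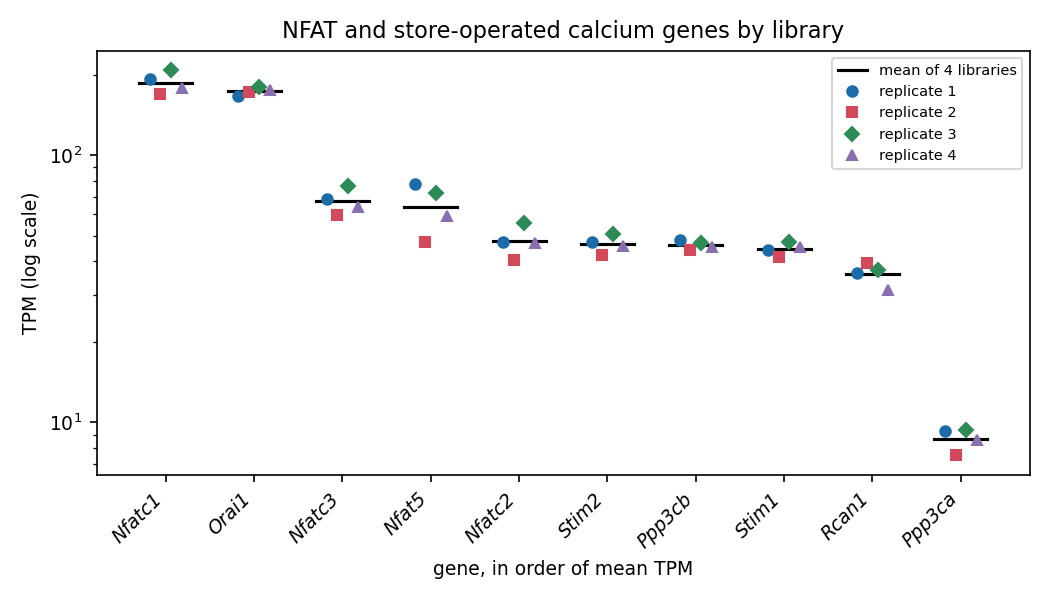
Level of each member in TPM on a log axis, in order of mean level. Each symbol is 1 library and each black line the mean of 4 libraries. Nfatc1 and Orai1 stand above 165 TPM in every library, Ppp3ca below 10 TPM in every library, and 7 genes lie between 31 and 79 TPM.

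Among the transcription factor genes, Nfatc1 was the most abundant. Nfatc1 (chromosome 18), which T cells are known to induce through its own autoregulation, stood at 193, 169, 208 and 178 TPM in replicates 1 to 4, a mean of 187 ± 17.2 (SD, n = 4). Replicate 3 was highest and replicate 2 lowest, and its lowest library lay above the highest library of every other NFAT gene. This level exceeded that of 90.6% of detected protein-coding genes.

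Nfatc3 (chr8:106058840-106130537, plus strand), a constitutively expressed family member with a role in thymocytes, stood at 68.7, 59.5, 76.7 and 64.1 TPM, a mean of 67.3 ± 7.37. Nfatc2 (chr2:168476410-168601657, minus strand), the factor known as NFAT1 and the main preformed NFAT of resting T cells, stood at 47.4, 40.5, 55.5 and 46.7 TPM, a mean of 47.5 ± 6.15. The 2 genes did not overlap between libraries, and both again had replicate 3 highest and replicate 2 lowest. Nfatc4, which is best known from heart and nervous tissue, had 2, 2, 5 and 7 counts in replicates 1 to 4, a mean of 0.0531 TPM. The exact 95% Poisson interval of its highest library reached at most 0.208 TPM and covers counting error only.

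Within libraries the proportions of the NFATc genes were nearly fixed. Nfatc1 made up 62.0 ± 0.749% of their summed TPM, Nfatc3 22.3 ± 0.183% and Nfatc2 15.7 ± 0.608%, while the sum itself ran from 269 to 340.4 TPM. The level of Nfatc1 was 3.95 ± 0.20 times that of Nfatc2 and 2.78 ± 0.0532 times that of Nfatc3. The log2 differences were 1.98 ± 0.07 and 1.47 ± 0.03, positive in 4 of 4 libraries in both cases. With the longest transcript of each gene as its length, the ratio to Nfatc2 was again 3.95 and that to Nfatc3 was 2.20 ± 0.0421. The SDs therefore do not cover the choice of length. Nfatc2 stood below Nfatc3 by a log2 difference of -0.50 ± 0.05, in 4 of 4 libraries, and of -0.84 ± 0.05 with the longest transcript. These and 9 other pairs fixed for comparison were compared inside each library on the log2(TPM + 0.1) scale, and the signs of the 4 differences were flipped in all 16 patterns (an exact permutation test, two-sided). With 4 libraries the smallest possible p is 2 in 16, above 0.05. That p was obtained for 11 of 12 pairs, and the exact test's adjusted p was then 0.136.

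Nfat5 varied more than any other member. Nfat5 (chr8:107293470-107379517, plus strand) stood at 78.1, 47.4, 72.0 and 59.0 TPM, a mean of 64.1 ± 13.7, with replicate 1 highest and replicate 2 lowest. Its coefficient of variation of 21.4% exceeded that of 94.7% of detected protein-coding genes, whose median was 7.94%, while counting error alone would give 0.679%. The log2 difference between Nfatc3 and Nfat5 was 0.09 ± 0.21, positive in 3 of 4 libraries (exact p = 0.50 by flipping signs), so their order was not resolved. With the longest transcript of each gene as its length, the difference was 0.61 ± 0.21, positive in 4 of 4 libraries.

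The channel gene stood well above its sensors. Orai1 (chr5:123015074-123030456, plus strand), which encodes the pore subunit of the store-operated channel, stood at 167, 172, 179.9 and 175 TPM, a mean of 173 ± 5.57. Its libraries lay closer together than those of any other member, with a coefficient of variation of 3.22%. The paralogs were lower in every library: Orai3 stood at 47.2 ± 3.99 TPM and Orai2, a modulator of the current in T cells, at 21.2 ± 2.20 TPM. Orai1 thus made up 71.7 ± 1.04% of the summed ORAI level, and exceeded Orai3 by a log2 difference of 1.88 ± 0.08 and Orai2 by 3.03 ± 0.13.

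Stim1 (chr7:102267806-102437319, plus strand), the main ER calcium sensor, stood at 44.1, 41.5, 47.4 and 45.1 TPM, a mean of 44.6 ± 2.45. Stim2 (chr5:53998499-54121057, plus strand), known to respond to smaller falls of store calcium, stood at 47.3, 42.3, 50.5 and 45.6 TPM, a mean of 46.4 ± 3.43. Their ranges overlapped, and the log2 difference of Stim1 minus Stim2 within libraries was -0.06 ± 0.04. That order rests on the gene length used. The merged exons of Stim1 span 10371 bases and its longest transcript 4362, whereas those of Stim2 span 5133 and 4934. With the longest transcript as length, Stim1 stood at 84.2 ± 4.69 TPM and Stim2 at 38.4 ± 2.86 TPM, and the log2 difference became 1.13 ± 0.04, positive in 4 of 4 libraries. The level of Orai1 was 3.89 ± 0.166 times that of Stim1 with merged exons and 2.00 ± 0.0854 times with the longest transcript, so only the direction of that difference was common to both lengths.

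**Figure D2:**
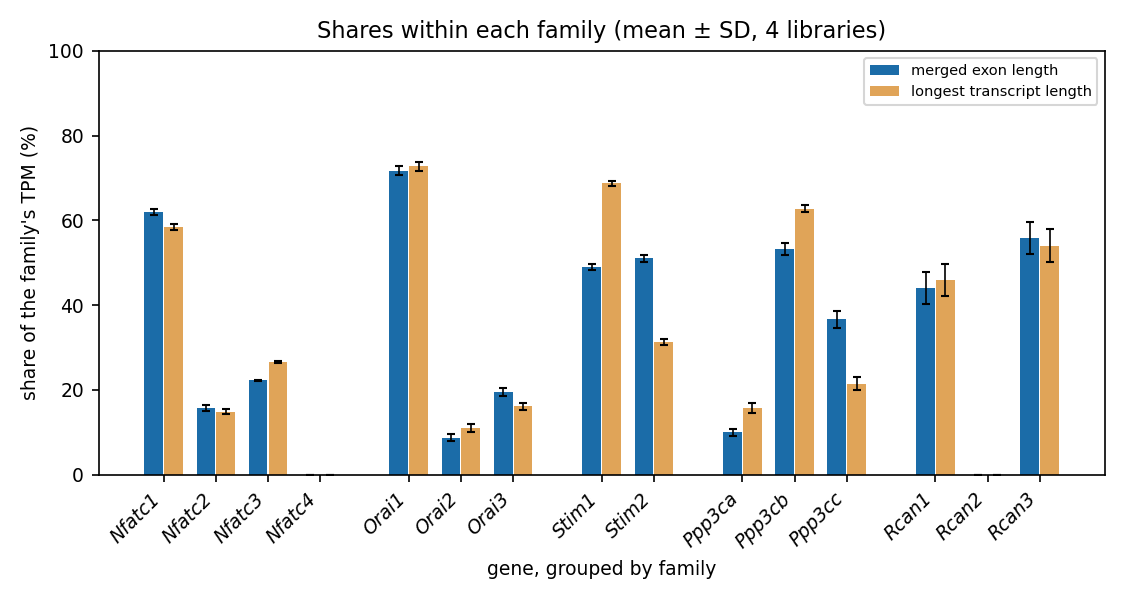
Share of each gene in the summed TPM of its family, as mean ± SD of 4 libraries (bars from 0), with the merged exon length of the deposited files or the longest transcript as the gene's length. Nfatc1 and Orai1 led their families with either length, while Stim1 moved from 49.0% to 68.7% of the STIM sum.

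Calcineurin pairs a catalytic A subunit with a regulatory B subunit, and the beta catalytic gene predominated. Ppp3cb (chr14:20499364-20546573, minus strand) stood at 48.0, 44.3, 47.0 and 45.4 TPM, a mean of 46.2 ± 1.63. Ppp3ca (chr3:136670124-136937727, plus strand), the alpha isoform that is abundant in brain, stood at 9.27, 7.52, 9.39 and 8.62 TPM, a mean of 8.70 ± 0.853. No library of Ppp3ca came near one of Ppp3cb: its level was 0.188 ± 0.0129 times that of Ppp3cb, a log2 difference of -2.40 ± 0.10 in 4 of 4 libraries.

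The gamma isoform gene Ppp3cc, often described as testis-enriched, stood at 31.8 ± 1.65 TPM, between the 2 members. The catalytic sum of 86.7 ± 1.88 TPM was made up of 53.3 ± 1.33% Ppp3cb, 36.7 ± 2.03% Ppp3cc and 10.02 ± 0.844% Ppp3ca. With the longest transcript as length these shares were 62.7 ± 0.786%, 21.5 ± 1.51% and 15.8 ± 1.11%, so the order held. The log2 difference of Ppp3ca minus Ppp3cc went from -1.86 ± 0.20 to -0.45 ± 0.20. For Ppp3cc, however, the longest transcript has 2494 bases, more than the 1948 bases of merged exons over which its reads were counted. That length thus includes bases outside the counted exons, and with it Ppp3cc stood at 19.8 TPM. The part of this mismatch in the narrower distance was not tested. The regulatory subunit gene Ppp3r1 stood at 175 ± 5.11 TPM, 2.02 ± 0.0669 times the catalytic sum, or 1.71 ± 0.0512 times with the longest transcript as length. Of its exon bases, 14.3% are shared with Wdr92 on the same strand, where reads can go uncounted. Its testis paralog Ppp3r2 had 0 counts in each of the 4 libraries, and a limit of 3 counts corresponds to at most 0.0712 TPM.

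Rcan1 (chr16:92391953-92466146, minus strand) stood at 36.2, 39.3, 37.1 and 31.3 TPM, a mean of 35.99 ± 3.40. Replicate 2 was highest and replicate 4 lowest, an order found in no other member. The level summed transcripts from both starts shown above, so the contribution of the motif-bearing internal start was not measured. Rcan3, a related calcineurin-binding gene, stood at 45.6 ± 2.95 TPM and exceeded Rcan1 in 4 of 4 libraries by a log2 difference whose mean, as Rcan1 minus Rcan3, was -0.34 ± 0.22. No library had a count for Rcan2 (0 counts), and 3 counts would correspond to at most 0.0575 TPM.

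Set in order of mean level, only some neighbours among the 10 members were separated by more than the spread of their difference within libraries. The steps from Orai1 to Nfatc3 (log2 difference 1.37 ± 0.14), from Nfat5 to Nfatc2 (0.41 ± 0.21), from Stim1 to Rcan1 (0.31 ± 0.19) and from Rcan1 to Ppp3ca (2.04 ± 0.23) exceeded 1 SD and were positive in 4 of 4 libraries. Nfatc1 and Orai1 differed by 0.11 ± 0.12, and Nfatc2, Stim2, Ppp3cb and Stim1 followed each other by 0.01 to 0.05 with SDs of 0.06 to 0.08, so those neighbours were not resolved. The order was read from these values and is a description. With the longest transcript as length, Nfatc1, Orai1 and Nfatc3 again came first and Rcan1 and Ppp3ca last, and Stim1 moved from the eighth to the fourth place.

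No member was called variable between libraries. edgeR set each gene's spread over the 4 libraries against the spread of similarly abundant genes, and called 94 of 13681 genes (0.687%) at an adjusted p under 0.05. None of the 10 members passed (edgeR, Benjamini-Hochberg over all genes). At an unadjusted p under 0.05 the test gave 1 of 10 members, Nfat5, against 7.01% of all genes, and DESeq2 marked 0 of 10 as dispersion outliers, against 65 of 23575 genes (0.276%). A p that misses the threshold does not show that levels were equal between libraries. For Nfat5 the unadjusted p was 0.00372 and the adjusted p in edgeR was 0.195, with a range of 0.0686 to 1 over the alternatives. Without replicate 2, its lowest library, the adjusted p in edgeR was 1 and the unadjusted p was 0.175.

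The small deviations that remained were shared among most members. Replicate 2 was the lowest library for 8 of 10 members, all but Orai1 and Rcan1, and replicate 3 the highest for 7 of 10. The same libraries were lowest for 43.0% and highest for 42.4% of all detected protein-coding genes. The median log2 deviation of the members from their own means was 0.03, -0.14, 0.12 and -0.02 in replicates 1 to 4. Orai1 and Rcan1 are also the 2 members with the shortest exons, 2295 and 2506 bases, while the other 8 exceed 5000 bases.

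Gene length moved with the same libraries across the transcriptome. Over the 10754 detected protein-coding genes, Spearman's rho between exon length and a library's log2 deviation was 0.23, -0.52, 0.52 and -0.31 in replicates 1 to 4, a correlation across genes, which are not independent replicates. The 4208 such genes of at least 5000 bases had median log2 deviations of 0.05, -0.11, 0.11 and -0.04, and replicate 2 was the lowest library for 64.2% of them and replicate 3 the highest for 59.5%. The part of length in the members' shared deviations was not tested.

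**Figure D3:**
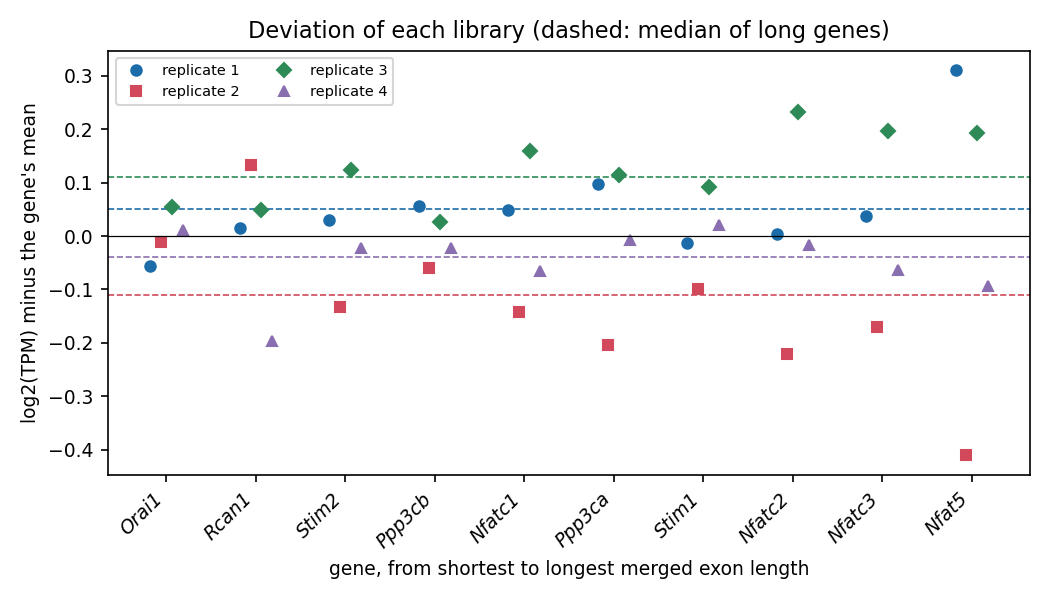
Log2 deviation of each library from the gene's mean over 4 libraries, with members ordered from the shortest to the longest merged exons. Dashed lines give the median deviation in each library of the 4208 detected protein-coding genes of at least 5000 bases, from -0.11 in replicate 2 to 0.11 in replicate 3. Replicate 2 is lowest for all 8 members of over 5000 bases, and Nfat5 shows the widest spread.

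The rest of the pathway was described from 86 further genes, of which 67 were detected, against 49.4% of protein-coding genes. These lists too were chosen with earlier results of these data known, so this count and those by role are descriptions. Upstream, all 8 genes of calmodulin and proximal receptor signalling were detected, among them the adaptor gene Lcp2 at 438 ± 18.1 TPM and the adaptor gene Lat at 417 ± 31.0 TPM. Of 9 genes of ER calcium release and uptake 5 were detected. The calcium pump genes Atp2a2 (385 ± 29.2 TPM) and Atp2a3 (318 ± 13.3 TPM) led, followed by the inositol trisphosphate receptor gene Itpr1 at 62.3 ± 7.49 TPM, which made up 69.7 ± 1.11% of the summed Itpr level. The remaining 4 were near 0 or below threshold: the skeletal muscle pump gene Atp2a1 stood at 0.189 ± 0.170 TPM and the ryanodine receptor genes Ryr1, Ryr2 and Ryr3 at 0.166, 0.724 and 0.0150 TPM.

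Of 8 regulators of STIM and ORAI 4 were detected, led by Saraf, a brake on store-operated entry, at 156 ± 6.57 TPM, and Stimate stood at 22.3 ± 1.75 TPM. Cracr2b, Septin4 and Tmem178 stood below 0.15 TPM. Septin2 stood at 1.15 ± 0.235 TPM, but 41.8% of its exon bases are shared with another annotated gene on the same strand, so its level is uncertain. Among 13 ion transport genes of the plasma membrane and mitochondria 10 were detected, and the potassium channel genes that sustain the driving force for calcium led, with Kcnn4 at 228 ± 6.51 TPM and Kcna3 at 80.2 ± 11.8 TPM, followed by Trpm7 at 32.9 ± 3.75 TPM. Trpm2, Atp2b2 and Atp2b3 were not detected, and Atp2b3 had 0 counts in all libraries.

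Genes whose proteins act on calcineurin or on NFAT were mostly present. Of 8 calcineurin regulators 6 were detected, led by Ppia (600 ± 48.2 TPM) and Fkbp1a (320 ± 9.66 TPM), which encode the binding proteins of cyclosporin and tacrolimus, and Chp1 at 124 ± 6.10 TPM. Akap5 and Homer2 stood at 0.260 and 0.0371 TPM. All 9 kinase genes that act on NFAT were detected, from Gsk3a (236 ± 12.6 TPM), Csnk1d (193 ± 9.80 TPM) and Csnk1a1 (185 ± 6.77 TPM) down to Lrrk2 (3.80 ± 0.748 TPM). That order rests on merged exon length. With the longest transcript as length, Csnk1a1 came first at 378 TPM, followed by Gsk3a at 241 TPM and Csnk1d at 209 TPM.

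**Figure D4:**
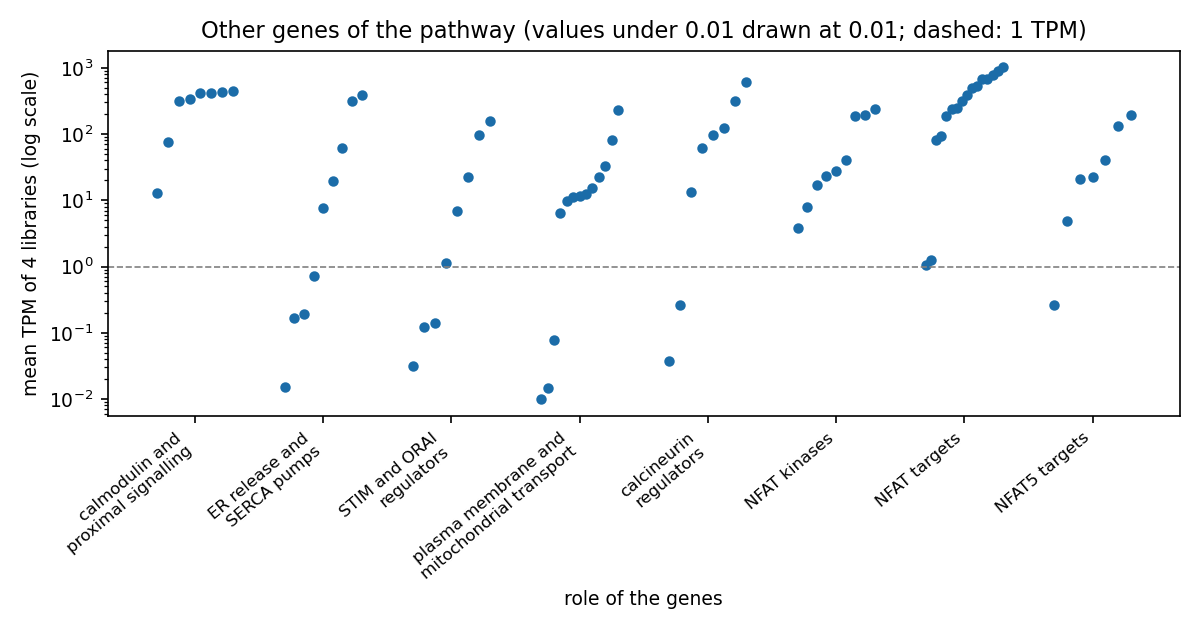
Mean TPM over 4 libraries of the other genes of the pathway on a log axis, 1 point per gene, grouped by role and sorted within each group. The dashed line is 1 TPM, and values under 0.01 are drawn at 0.01. All 8 upstream and all 9 kinase genes lie above the line, whereas 4 of 9 ER genes lie below it.

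Of 16 genes known as NFAT targets 14 were detected, led by Il2 (1015 ± 71.5 TPM), Nr4a1 (889 ± 84.0 TPM) and Ctla4 (776 ± 41.5 TPM). Tnf stood at 248 ± 37.2 TPM. Il4 and Ifng had means of 1.04 ± 0.376 and 1.23 ± 1.16 TPM and reached 1 TPM only in replicate 1 (1.55 and 2.95 TPM). Of the exon bases of Ifng, 25.95% are shared with Gm49751 on the same strand, where reads can go uncounted. Many of these genes also answer to other factors, and their levels do not measure NFAT activity. Of 7 genes of the osmotic response attributed to NFAT5, 6 were detected, led by the taurine transporter gene Slc6a6 (192 TPM), Slc38a2 (134 ± 9.81 TPM) and Akr1b3 (40.5 ± 2.30 TPM). The betaine transporter gene Slc6a12 stood at 0.261 ± 0.205 TPM.

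Across all 83 list genes that were tested, members included, edgeR called 0 at an adjusted p under 0.05 and 7 at an unadjusted p under 0.05, a share near the 7.01% of all genes. DESeq2 marked 0 of the 93 list genes it tested. With 1 common dispersion for all genes edgeR called 617 of 13681 genes (4.51%), among them 1 list gene, Ryr1 (adjusted p = 0.0438), which had 31 to 111 counts per library and a trended biological coefficient of variation of 25.7% against the common 11.1%.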

How the data were processed

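The deposited values are raw read-pair counts per gene, 1 table per library. Per the file headers, the authors counted with featureCounts 1.4.6-p4 on exons merged by gene of GENCODE mouse release 13, with both ends aligned and on the reverse strand. The labels give the build mm10, and the sources used here give no version of the aligner.

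Symbols came from GENCODE release 21, matched on the Ensembl identifier for 50376 of 50600 genes, with 3 list genes found by a synonym. TPM was computed over all genes, with the merged exon length of each file as gene length. The members and lists were chosen with earlier results of these data known. Named are all members and their paralogs, and in each other list the 3 genes of highest mean TPM, every gene not detected, and Tnf; some of these are not reported here. Patterns over 4 libraries were not ranked against other genes.

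Variability between libraries was tested in edgeR 4.0.16 (R 4.3.3). TMM factors, filterByExpr and a trended dispersion were used with an intercept as the single term, the deviance was referred to chi-square with 3 degrees of freedom, and this test was checked on simulated data (13681 genes). DESeq2 1.42.0, Python 3.11.15, scipy 1.17.1 and Biopython 1.88 were also used. Low counts have exact Poisson intervals, and a gene at 0 counts a floor of 3 counts in a library. The alternatives were other TPM thresholds, a count of 10, TPM over protein-coding genes, RPKM with TMM factors, another pseudocount, other dispersions, filters and size factors, and leaving out each replicate. The longest transcript as length was added after seeing the data. For some list genes, Ppp3cc and Egr3 among them, it exceeded the merged exon length of the files, and for all members it was shorter.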

Additional observations from a re-analysis of the deposited data

Results flagged for a closer look

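Among 77 detected genes of the pathway, members included, a single library stood apart from the other 3 in 2 genes, by a gap to the nearest library that took up most of the whole range. The calcium pump gene Atp2a3 stood at 338 TPM in replicate 3 and at 309 to 313 TPM in the others. Its merged exons span 5281 bases, and replicate 3 was the highest library for 59.5% of detected protein-coding genes of at least 5000 bases. The part of that pattern in this gap was not tested. The inhibitory receptor gene Ctla4 stood at 838 TPM in replicate 4 and at 749 to 763 TPM in the others. Chance flags about 1 in 20 such groups, and no member was among the 2.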

How the results depend on the processing

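All 10 members were detected under each TPM threshold, count minimum, length and left-out replicate tried, and none was called variable under any edgeR setting or by DESeq2. The count of 67 other pathway genes ranged from 65 to 72, and from 67 to 68 when 1 replicate was left out. Of the 12 pair differences, 1 reversed: Stim1 minus Stim2 went from -0.06 to 1.13 on the log2 scale with the longest transcript as length, by that setting's own construction. No pair difference reversed with a pseudocount of 1, with RPKM and TMM factors or without any 1 replicate. The mean levels of 8 of 10 members moved by more than 1 SD with the longest transcript, the largest being that of Stim1 (1.89 times), and those of Ppp3ca (1.67 times) and Nfatc3 (1.56 times) also moved by over 1.5 times. TPM over protein-coding genes moved 3 of 10 (Orai1 to 183 TPM, Stim1 to 47.1 TPM and Ppp3cb to 48.8 TPM). RPKM with TMM factors is on another scale and moved all 10. edgeR called 94 genes in all, 617 with 1 common dispersion, 46 without replicate 1, 38 without replicate 2, 87 without replicate 3 and 46 without replicate 4; the cause was not tested. Some orders among the other pathway genes changed with the longest transcript as length. Ctla4 (744 TPM) then stood above Nr4a1 (685 TPM), and Lat (447 TPM) above Lcp2 (426 TPM). No paired analysis was possible because the labels give 1 group. Depth did not limit the members, whose counts were 1213 or more in every library.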
